A study of Mus musculus with 2 samples.

Results

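The resident macrophages of the embryonic mouse pituitary were followed through 10 genes, namely Csf1r, Cx3cr1, C1qa, C1qb, C1qc, Ptprc, Mrc1, Tyrobp, Fcer1g and Pf4. The genes were taken by name from a fixed list, and all 10 were found among the 55401 genes of the deposited tables. The series compared whole pituitaries of wild-type embryos with those of embryos lacking the protein kinase Dyrk2, at embryonic day E12.5. There was 1 polyA-selected, stranded RNA sequencing library per genotype, labelled WT and Dyrk2-KO. The labels give no strain, sex or number of pooled embryos, no allele design and no Cre or transgene. The authors deposited FPKM, a level corrected for exon length and for the size of the library. The values corresponded to 20046181 counted fragments for wild type and 20115007 for the knockout.

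Tissue macrophages of the early mouse embryo arise largely from the yolk sac and seed organs as vessels form. Their survival depends on Csf1r, the receptor for the growth factors Csf1 and Il34, and the transcription factor PU.1, encoded by Spi1, sets up their gene programme. In developing organs they clear dying cells, tag targets with complement and associate with growing vessels. The title of the series places this organ's vessel growth among the questions asked.

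A single library per genotype leaves every difference without a replicate check, so no p-value is given. All intervals are exact 95% counting intervals and leave out the spread between embryos, dissections and library preparations. Dyrk2 itself measured 11.5 FPKM in wild type and 1.93 FPKM in the knockout, a ratio of 0.168 (0.146 to 0.192). The female-specific transcript Xist measured 74.98 and 14.8 FPKM and the Y-linked Ddx3y 5.83 and 14.95 FPKM, so the sexes were mixed in different proportions. None of the 10 genes lies on a sex chromosome. In whole-organ RNA, fewer macrophages and less RNA per macrophage cannot be told apart.

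Macrophage transcripts were present in both libraries at low levels, and their sum was slightly lower in the knockout library. Together the 10 genes held 1632 fragments in wild type and 1493 in the knockout. The ratio of these sums, knockout over wild type, was 0.912 (0.849 to 0.979). Summed fragments weight long genes more: Csf1r differed by 129 fragments, beside a net 139 for the sums. The other 9 genes together had a ratio of 0.988 (0.911 to 1.07). Summed per length, the 10 genes came to 43.79 FPKM in wild type and 39.74 FPKM in the knockout, a net difference of 4.05 FPKM. Wild type minus knockout was 2.11 for Tyrobp, 1.12 each for Csf1r and C1qa, 0.93 for Pf4, 0.5 for C1qc and 0.06 for Ptprc. It was -1.01 for Fcer1g, -0.42 for Mrc1, -0.2 for Cx3cr1 and -0.16 for C1qb. On that scale the ratio was 0.907, 0.927 without Csf1r and 0.950 without Tyrobp. Tyrobp and Ptprc were also lower in the knockout library, Mrc1 was higher, and the remaining 6 had intervals that included 1.

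**Figure D1:**
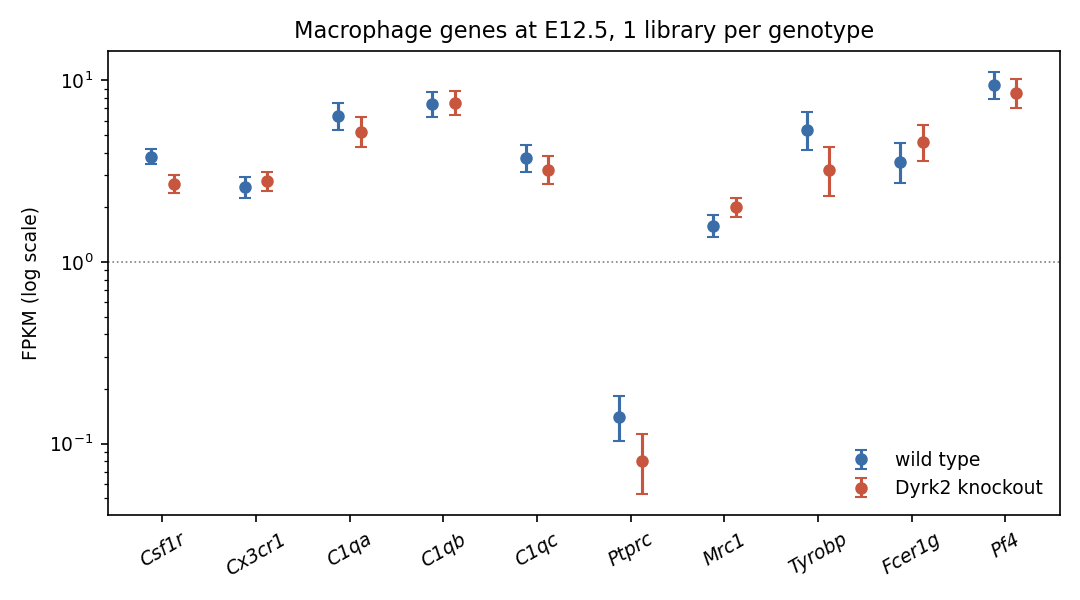
FPKM on a log scale of the 10 macrophage genes in the wild-type (blue) and Dyrk2 knockout (red) library. Points are the deposited values and bars exact 95% Poisson counting intervals; the dotted line marks 1 FPKM. Ptprc alone lies below that line, at 0.14 and 0.08 FPKM, and the bars of the 2 libraries stand clear of each other for Csf1r only.

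Of the 10 genes, 9 passed a filter of 1 FPKM in at least 1 library, and Ptprc did not. With 0.5 FPKM added to both values, 1 of the 9, Tyrobp, was at least 1.5-fold lower in the knockout library and none was as much higher, against 4.56% and 2.06% of the 14000 genes above the filter. The other 8 lay within 1.5-fold, as did 93.4% of those genes. The counting interval lay wholly below 1 for 2 of the 9, against 22.3% of those 14000 genes, and wholly above 1 for 1 of the 9, against 17.7%. With Ptprc, 3 of 10 lay below 1. Among the 4829 genes with as many wild-type fragments as the members, 51 to 440, the shares were 24.4% below and 9.63% above. The shares of members called were thus near those of all genes. For the interval counts of further lists below, the share below 1 was 15.3% over all 24961 genes with a fragment. The share above 1 over that set is not given here, so counts above 1 are also given for the genes above the filter in the larger cases. The median log2 ratio of the members with the addition was -0.14, beside -0.02 for all genes above the filter.

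The growth factor receptor Csf1r, the gene on which macrophage survival depends, measured 3.80 FPKM in wild type and 2.68 FPKM in the knockout. Its 440 and 311 fragments gave a ratio of 0.705 (0.607 to 0.816), a 1.42-fold lower level. Csf1r (ENSMUSG00000024621) lies on the plus strand of chromosome 18 from 61100598 to 61132149 in GRCm38. Pdgfrb, a receptor of pericytes and mesenchyme and the next coding gene upstream on the same strand, ends 15.5 kb before it and measured 17.7 and 8.50 FPKM, a ratio of 0.480 (0.444 to 0.519). Hmgxb3, on the opposite strand, shares 873 of the 5774 exon bases of Csf1r and measured 5.43 and 6.13 FPKM. Whether counting used the strand is not given in the sources used here, so fragments in the shared stretch could belong to either gene, and the part of these neighbours in the Csf1r values was not tested.

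The ligands and regulators of this receptor axis had mostly lower values. Csf1 measured 3.46 and 2.68 FPKM, a ratio of 0.775 (0.662 to 0.909). Il34, the other ligand, held 6 and 3 fragments. Of the 11 listed ligands and transcription or signalling factors, 8 passed the filter, 4 had intervals below 1 and 1, Tfec at 20 and 36 fragments, had an interval above 1. Maf, a transcription factor of macrophages that other embryonic tissues also use, measured 12.6 and 9.90 FPKM. Spi1, more restricted to blood cells, measured 1.09 and 0.89 FPKM, with a ratio of 0.817 (0.542 to 1.21). Runx1, which the blood lineages need to form, measured 1.51 and 1.54 FPKM.

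Cx3cr1, the receptor for the neuronal and endothelial chemokine Cx3cl1, was near level. It measured 2.58 FPKM in wild type and 2.78 FPKM in the knockout, 233 and 252 fragments, and the ratio was 1.08 (0.898 to 1.29). Its ligand Cx3cl1 measured 3.39 and 2.45 FPKM, with a ratio of 0.723 (0.599 to 0.874). The interval of Cx3cr1 lies wholly above that of Csf1r.

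The complement subunit genes C1qa, C1qb and C1qc encode the chains that assemble into C1q, the recognition molecule of the classical complement pathway, which macrophages make in most tissues. They lie side by side on the minus strand of chromosome 4, within 18.7 kb. C1qa measured 6.33 and 5.21 FPKM, with a ratio of 0.823 (0.633 to 1.07). C1qb measured 7.38 and 7.54 FPKM, with a ratio of 1.02 (0.817 to 1.28). C1qc measured 3.72 and 3.22 FPKM, with a ratio of 0.866 (0.675 to 1.11). All these intervals include 1 and overlap each other, and over the 3 chains the fragments summed to 437 and 399, a ratio of 0.910 (0.792 to 1.04).

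Within a library C1qb was the highest of the chains and C1qc the lowest, with C1qb at 1.98 times the FPKM of C1qc in wild type. That gap depends on the length used. The deposited exon length of C1qc, 1931 bases, merges a second, non-coding transcript with the coding one of 1203 bases, whereas C1qa and C1qb have 1 transcript each. Per kilobase of the coding transcript C1qc stood at 5.97 and 5.17 on the FPKM scale, beside 6.33 and 5.21 for C1qa and 7.38 and 7.54 for C1qb.

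Among other complement genes 9 of 16 had ratios below 1 and 7 above. C1ra, C1s1 and C3, which act with or after C1q, held 2 and 5, 7 and 21, and 2 and 4 fragments. None of the 16 had an interval below 1, and 4 had one above 1: C1s1, Itgb2, Calr and C1qbp. Of the 5 above the filter, none lay below 1 and 2 above, against 22.3% and 17.7% of all genes above it. Calr, a chaperone of every cell that can also bind C1q, measured 262 and 278 FPKM, and Cd93, an endothelial and myeloid receptor, 9.28 and 9.23 FPKM.

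Tyrobp and Fcer1g encode small membrane adaptors whose ITAM motifs carry signals from activating receptors of myeloid cells, and their values parted. Tyrobp measured 5.31 and 3.20 FPKM, from 71 and 43 fragments, with a ratio of 0.603 (0.403 to 0.894). Fcer1g measured 3.54 and 4.55 FPKM, from 62 and 80 fragments, with a ratio of 1.29 (0.911 to 1.82). Tyrobp stood at 1.5 times the FPKM of Fcer1g in wild type and at 0.703 times in the knockout. Their summed fragments, 133 and 123, had a ratio of 0.922 (0.715 to 1.19).

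Tyrobp has a close neighbour. Hcst, another myeloid adaptor gene, ends 126 bases from Tyrobp on the opposite strand and held 13 and 2 fragments. Its part in the Tyrobp values was not tested.

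Of the receptors and kinases that work with these adaptors, 5 of 18 listed genes passed the filter. Plcg2, a phospholipase downstream of ITAM signals, measured 1.54 and 1.16 FPKM, with a ratio of 0.753 (0.572 to 0.979). Syk, the kinase that docks on the motif, measured 1.12 and 1.23 FPKM, and Lyn 2.89 and 2.84 FPKM, both with intervals that included 1. Trem2, a receptor that signals through Tyrobp, held 30 and 25 fragments, and Fcgr3, which signals through Fcer1g, 55 and 39.

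Ptprc, the leukocyte phosphatase CD45, was the weakest of the 10 by FPKM, at 0.14 and 0.08. Its 51 and 29 fragments gave a ratio of 0.571 (0.346 to 0.911). The low FPKM reflects in part its exon length of 18313 bases, summed over 13 annotated transcripts of which 8 are retained introns. On its principal coding transcript of 4702 bases the same fragments equal 0.541 and 0.307 on the FPKM scale, still the lowest of the 10.

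Other genes expressed across leukocytes were not lower as a group. Coro1a, an actin regulator of leukocytes, measured 3.64 and 3.61 FPKM and Laptm5, a lysosomal protein of blood cells, 3.27 and 2.93 FPKM. Lcp1, an actin bundler, measured 3.43 and 4.06 FPKM. Of 13 listed genes, 1 had an interval below 1 (Cd52, at 12 and 2 fragments) and 2 above 1 (Lcp1, and Itgb2 at 8 and 24 fragments). Among the 4 above the filter, none lay below 1 and 1 above, against 22.3% and 17.7% of all genes above it. The summed fragments of all 13 had a ratio of 1.07 (0.998 to 1.15), and of 0.984 (0.893 to 1.08) without Lcp1.

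Mrc1, the mannose receptor CD206, a scavenger receptor of tissue macrophages and of some endothelium, was the 1 member with an interval above 1. It measured 1.58 and 2 FPKM, from 202 and 256 fragments, with a ratio of 1.27 (1.05 to 1.53). Stab1, a scavenger receptor of the same 2 cell types, measured 3.84 and 6.25 FPKM, a ratio of 1.63 (1.49 to 1.78). Lyve1, a hyaluronan receptor found on both as well, held 12 and 45 fragments. Dab2, an endocytic adaptor, measured 4.25 and 5.27 FPKM, while Mrc2, the relative of Mrc1 on mesenchyme, measured 19.9 and 19.2 FPKM and Cd163 was listed at 0 in both libraries. The scavenger receptors Colec12 and Scarb1 were lower, with ratios of 0.812 (0.730 to 0.901) and 0.887 (0.817 to 0.964). Of the 12 listed scavenger and endocytic genes, 3 thus had intervals above 1 and 2 below. Among the 5 above the filter, 2 lay above 1 and 2 below, against 17.7% and 22.3% of all genes above it. The sum of all 12 had a ratio of 1.04 (1.01 to 1.08), or 0.959 (0.923 to 0.996) without Stab1.

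Endothelial genes differed among themselves. The 5 listed lymphatic endothelial genes summed to 1836 and 2254 fragments, a ratio of 1.22 (1.15 to 1.30), with Prox1, the lymphatic determinant, at 1.36 and 2.11 FPKM and Flt4, a receptor for lymphatic growth factors, at 1.98 and 3.76 FPKM. Ccl21a, a defining lymphatic chemokine, held 0 and 1 fragments. Reln, a secreted matrix protein of lymphatic endothelium and of other tissues, was lower, at 0.57 and 0.43 FPKM with a ratio of 0.754 (0.626 to 0.907). Without Flt4 the lymphatic sum had a ratio of 1.08 (1.004 to 1.16), and without Reln 1.30 (1.22 to 1.39). Without Pdpn, the remaining listed gene, the sum fell to 827 and 1185 fragments, and its ratio was 1.43 (1.31 to 1.56). The 12 general endothelial genes had a summed ratio of 1.08 (1.05 to 1.11); 4 had intervals above 1 (Pecam1, Cdh5, Kdr and Tie1), 6 included 1 and 2 lay below, Sox17 at 0.6 (0.462 to 0.774) and Cldn5 at 0.838 (0.733 to 0.957). All 12 passed the filter, and 17.7% of all genes above it had intervals above 1 and 22.3% below. The part of endothelial genes in the Mrc1 value was not tested.

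Pf4, a chemokine made by embryonic macrophages and by megakaryocytes, had the highest FPKM of the 10. It measured 9.41 and 8.48 FPKM, from 136 and 123 fragments, with a ratio of 0.901 (0.701 to 1.16). Ppbp, its neighbour on chromosome 5 and a platelet chemokine, measured 4.05 and 4.22 FPKM. The platelet integrin gene Itga2b measured 1.99 and 2.12 FPKM, and its partner Itgb3 2.78 and 2.20 FPKM. Of the 15 listed megakaryocyte genes 7 passed the filter, 4 had intervals below 1 and none above, and their sum had a ratio of 0.868 (0.794 to 0.949), or 0.903 (0.812 to 1.004) without Itgb3. Transcripts of that lineage were therefore in both libraries beside Pf4, and their share in its value was not tested.

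**Figure D2:**
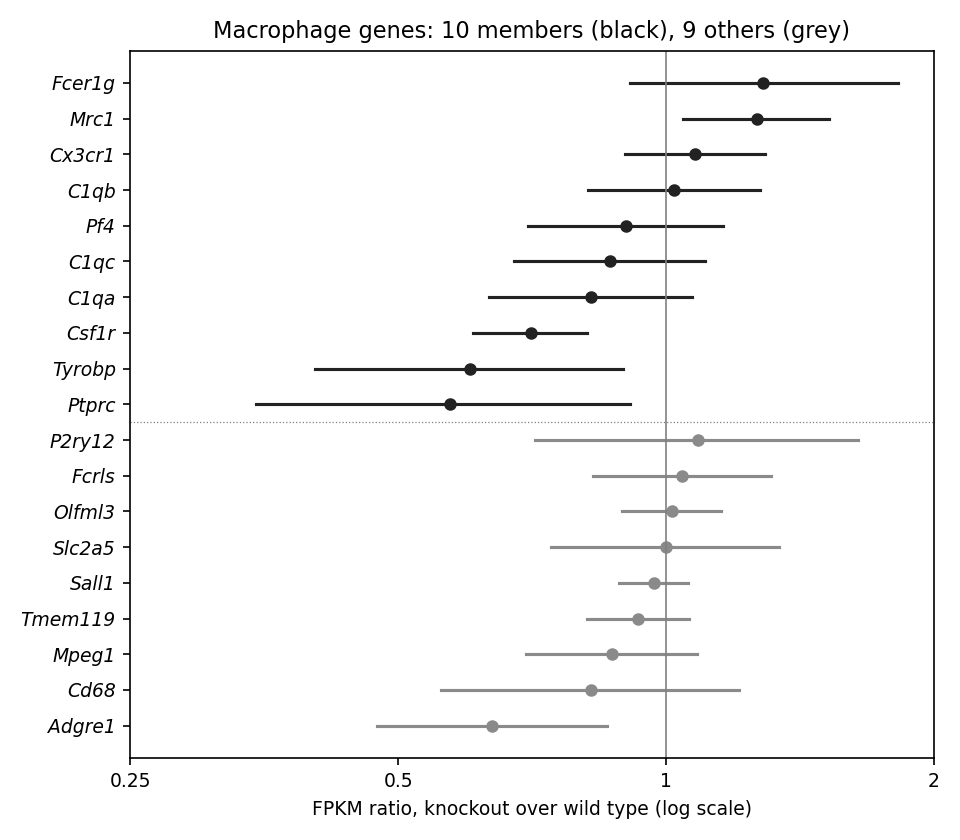
FPKM ratio, knockout over wild type, on a log scale for the 10 members (black) and the 9 of 23 other listed macrophage and microglia genes that passed 1 FPKM (grey). Points are plain ratios and bars exact 95% counting intervals. Csf1r, Tyrobp, Ptprc and the further gene Adgre1 lie wholly below 1, and Mrc1 lies wholly above it.

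By level in the wild-type library the order ran Pf4, C1qb, C1qa, Tyrobp, Csf1r, C1qc, Fcer1g, Cx3cr1, Mrc1, Ptprc. The intervals of neighbours in this order overlapped from Pf4 down to Cx3cr1, and only Mrc1 and Ptprc each stood apart from the gene above. In the knockout library Pf4 and C1qb again led, and Tyrobp came after Fcer1g and C1qc. All 10 were modest in the context of the organ: Pf4 exceeded 55.7% of the genes above the filter and Mrc1 14.1%. Pitx1, a pituitary progenitor factor, measured 250 and 227 FPKM.

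Of 23 further macrophage genes outside the 10, 15 had ratios below 1, 6 above and 2 equal to it, 5 had intervals below 1 and none above. Over all genes with a fragment, 15.3% had an interval below 1. Of the 9 further genes that passed the filter, 1, Adgre1, had an interval below 1, against 22.3% of all genes above the filter. Adgre1, which encodes the macrophage antigen F4/80, measured 1.85 and 1.18 FPKM, with a ratio of 0.638 (0.474 to 0.858). The other 4 were weaker: Cd33 at 51 and 30 fragments, Ms4a6c at 38 and 20, Ms4a7 at 18 and 5, and Cd14 at 16 and 5. Fcrls, a gene of microglia and related macrophages, measured 3.23 and 3.37 FPKM, and Cd68, a lysosomal glycoprotein of macrophages, 2.5 and 2.06 FPKM. Tmem119, Sall1 and Olfml3, which mark microglia in the brain but are also made by mesenchyme or other embryonic tissue, measured 10.3 and 9.58, 9.66 and 9.36, and 3.92 and 3.98 FPKM. The list's summed ratio was 0.928 (0.882 to 0.977), and 0.852 (0.780 to 0.931) without Tmem119, Sall1 and Olfml3.

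Other blood cells were gauged to see what else Ptprc, Tyrobp and Fcer1g could mark. Of 11 lymphocyte genes 5 were at 0 in both libraries, Cd3e, Cd3g, Ms4a1, Nkg7 and Ncr1, and no gene exceeded 31 fragments. An interval above 1 was found for 1 of them and below 1 for none. The lymphocyte sum, 36 and 49 fragments, had a ratio of 1.36 (0.864 to 2.15), or 0.854 (0.429 to 1.68) without Rag1. Of 7 mast cell genes Mcpt4, Cma1, Tpsb2 and Fcer1a were at 0 in both. Hdc, the histamine-forming enzyme that other cells also use, held 29 and 9 fragments, a ratio of 0.304 (0.129 to 0.671), and the mast cell list summed to 36 and 13 fragments, or 7 and 4 without Hdc. Taken as a one-sided limit, a count of 0 allows up to 3 fragments, equal to 0.15 FPKM on a 1 kb gene in the wild-type library. Of 13 monocyte and neutrophil genes, Ly6c2, Elane and Ly6g were at 0 in both, Prtn3, a granule protease, measured 3.77 and 3.76 FPKM, and Plac8 was far lower in the knockout library at 53 and 3 fragments, a ratio of 0.0542 by FPKM (0.0113 to 0.174). The list's sum had a ratio of 0.759 (0.626 to 0.920), and of 0.947 (0.772 to 1.16) without Plac8. Without Prtn3 it moved the other way, to 121 and 61 fragments, a ratio of 0.502 (0.363 to 0.689). Embryonic red cell genes, carried by blood left in the tissue, had a ratio of 0.767 (0.754 to 0.780). The part of these cells in the values of the 10 genes was not tested.

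**Figure D3:**
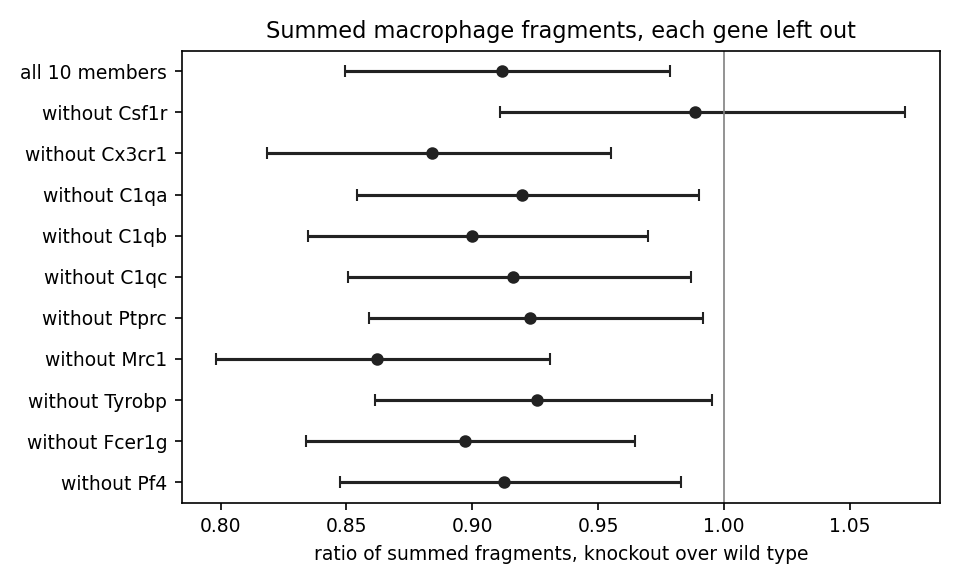
Ratio of the summed fragments of the macrophage genes, knockout over wild type, for all 10 genes and with each left out in turn. Points are ratios of depth-corrected fragments and bars exact 95% counting intervals. The ratio is 0.912 for all 10 and runs from 0.862 without Mrc1 to 0.988 without Csf1r, the 1 case in which the interval includes 1.

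Sequence upstream of the genes was examined for the purine-rich box of PU.1, spelled GAGGAA or, on the other strand, TTCCTC. The 250 bases before each start were taken from the RefSeq promoter table of GRCm38.p6, which matched 7 of the 10 genes in 8 windows. The box was found in 5 of the 8 windows, for 5 genes, C1qb, C1qc, Ptprc, Mrc1 and Pf4. It was not in the windows of Cx3cr1 and Fcer1g or in the second window of Ptprc. Csf1r, C1qa and Tyrobp had no entry. Of all 32851 windows given by RefSeq, 23.3% held it. Shown here are the neighbours C1qb and C1qc, whose intervals included 1. Also shown are Ptprc, 1 of the 3 members with an interval below 1, and Mrc1, the 1 member with an interval above 1. Each is written 5′ to 3′ on the gene's strand, stops before the first annotated coding transcript, and has the box in capitals:
C1qb (chr4:136886201-136886450, minus strand): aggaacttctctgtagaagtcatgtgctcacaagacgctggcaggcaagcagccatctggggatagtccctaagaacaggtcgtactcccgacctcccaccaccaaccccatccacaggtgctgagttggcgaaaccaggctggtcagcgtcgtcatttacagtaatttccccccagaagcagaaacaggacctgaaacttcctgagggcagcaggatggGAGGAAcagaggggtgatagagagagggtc
C1qc (chr4:136893066-136893164, minus strand): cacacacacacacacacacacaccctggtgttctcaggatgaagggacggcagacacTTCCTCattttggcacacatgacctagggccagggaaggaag
Ptprc (chr1:138175307-138175555, minus strand): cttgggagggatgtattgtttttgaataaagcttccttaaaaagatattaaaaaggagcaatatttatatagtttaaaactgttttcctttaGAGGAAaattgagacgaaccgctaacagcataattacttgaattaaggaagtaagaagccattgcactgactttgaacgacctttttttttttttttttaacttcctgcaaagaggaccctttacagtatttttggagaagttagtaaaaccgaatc
Mrc1 (chr2:14229164-14229391, plus strand): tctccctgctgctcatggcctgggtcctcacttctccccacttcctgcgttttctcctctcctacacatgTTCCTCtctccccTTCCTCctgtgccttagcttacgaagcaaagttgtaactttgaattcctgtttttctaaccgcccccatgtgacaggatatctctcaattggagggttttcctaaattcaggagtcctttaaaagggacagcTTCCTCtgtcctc

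In the windows shown, Ptprc held the box in 1 copy and Mrc1 in 3, a number reached by 0.429% of all windows. The pyrimidine-rich stretches around the copies of Mrc1 are visible in the sequence. A match is a description of the letters and not a measured binding site.

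The listed clearance genes were mixed, and the lysosome and phagosome genes were lower as a sum. The receptor gene Axl, which recognises dying cells through Gas6, measured 25.6 and 22.4 FPKM, and its relative Tyro3 8.64 and 9.88 FPKM. Mfge8, a bridging protein for dying cells, measured 14.3 and 13.3 FPKM and Sirpa, the receptor of the signal Cd47, 11.0 and 12.1 FPKM. Of 11 listed genes, 2 had intervals below 1 and 4 above. Among the 9 above the filter, 2 lay below 1 and 3 above, against 22.3% and 17.7% of all genes above it. The sum of all 11 had a ratio of 0.969 (0.940 to 0.999), or 1.01 (0.975 to 1.05) without Axl. Among 15 genes of lysosome and phagosome, which all cells share to some degree, Ctsd, an aspartic protease, was lower at 96.5 and 69.7 FPKM. Lamp1, a membrane protein, measured 102 and 91.6 FPKM. In all, 6 had intervals below 1, Lyz2 and Cybb among them, and 1, Ncf1, above. Of the 11 above the filter, 5 lay below 1 and 1 above, against 22.3% and 17.7% of all genes above it. The list's sum had a ratio of 0.879 (0.862 to 0.897), or 0.923 (0.903 to 0.944) without Ctsd.

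**Figure D4:**
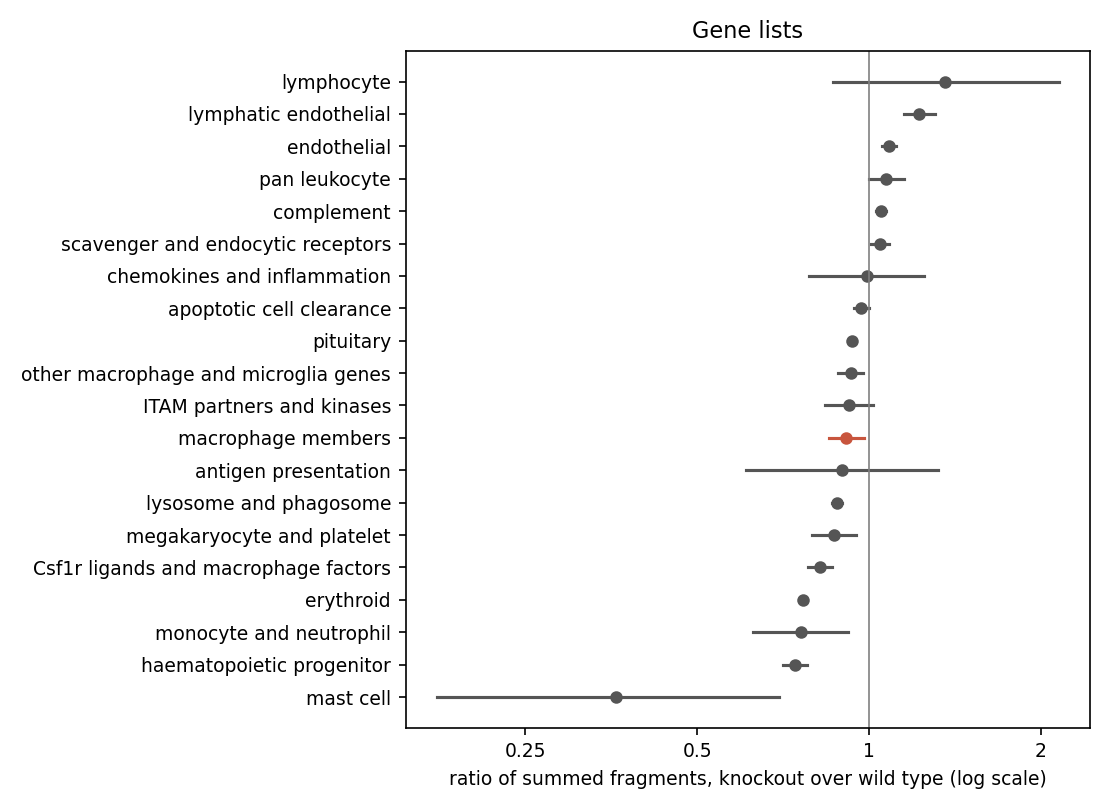
Ratio of summed fragments, knockout over wild type, on a log scale for the 10 macrophage genes (red) and 19 further lists (grey), with exact 95% counting intervals as bars. The macrophage genes at 0.912 stand between the endothelial lists, above 1, and the erythroid list at 0.767.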

How the data were processed

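RNA of whole pituitaries was sequenced in 1 wild-type and 1 Dyrk2 knockout library, grouped by the genotype label. The authors deposited FPKM per gene to 2 decimals with the summed exon length, per the file headers. The submitters' processing notes name cutadapt 1.9.1, HISAT2 2.0.1 and GRCm38 with counting tool, strand setting and filters not given in the sources used here. For all 10 members the deposited exon length equalled the merged exons of GENCODE M21, which supplied symbols and coordinates (55141 of 55401 genes matched).

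Counted fragments were recovered from the steps in FPKM times length. All 1512 and 1372 values checked, at most 100 fragments each, were whole within 0.1 fragment. Exact 95% Poisson and Clopper-Pearson intervals were computed with scipy 1.17.1 and cover counting error only. Log2 ratios used 0.5 FPKM added, and the filter asked for 1 FPKM in either library. Fragment recovery, the ratio intervals, the 1.5-fold call and the scalings were tested on simulated data, and the other steps were not. FPKM depend on the length used and on how shared fragments were assigned.

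The members and lists were chosen with earlier results of these data known. Besides the members and Dyrk2, each list gave up to 6 genes past 1.5-fold, the 4 most expressed, and those at 0 in both libraries. A few genes under this rule are not reported here. Genes named outside this rule, such as Adgre1, Spi1, Il34, Lyve1, Cd52, Hcst, Hmgxb3 and Pdgfrb, were chosen after their values were seen. Alternatives were 3 scalings, pseudocounts of 0.1 and 2 FPKM, filters of 5 FPKM and none, members left out, and, chosen after seeing the data, the principal transcript's length, summed FPKM and lists with genes left out.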

Additional observations from a re-analysis of the deposited data

How the results depend on the processing

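No paired analysis was possible because each genotype had a single library. Without Csf1r the summed ratio moved to 0.988, and leaving out any other single member kept it between 0.862 and 0.926 with an interval below 1. Scaling by the upper quartile, by a trimmed mean of log ratios or by totals without the 100 most abundant genes multiplied the knockout values by 1.01, 1.02 and 0.999, and the summed ratio was 0.920, 0.931 and 0.911. With 2 FPKM added, 0 members were at least 1.5-fold lower, since Tyrobp then stood at -0.49 on the log2 scale. The 3 members with intervals below 1 and the median, from -0.20 to -0.06 over 19 alternatives, kept their direction. Of 50 alternatives for single members, 49 stayed within the counting interval of the plain ratio, and Ptprc with 2 FPKM added, at -0.04, did not. The scalings changed values little beside the width of these intervals and could hardly have left them, so that count says little about stability. Genes were also left out of the other lists, chosen after seeing the data. Of the sums whose full-list interval excluded 1, 3 changed sides of 1. These were scavenger receptors without Stab1 (0.959), complement without Calr and C1qbp (0.963) and clearance without Axl (1.01). Sums whose interval included 1 also crossed it, among them leukocyte genes without Lcp1 (0.984) and lymphocyte genes without Rag1 (0.854). Antigen presentation did so without H2-Ab1 (1.07) and chemokines without Ccl2 (1.05). At 29 to 440 fragments per gene, differences well under 1.5-fold were not detectable for the weaker members.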

Other observations

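Transcripts of inflammatory activation were scarce in both libraries. Of 16 chemokine and inflammation genes, Il1b, Il6 and Cxcl2 were listed at 0 in both, and Tlr2, a receptor for bacterial lipoproteins, was the single gene above 1 FPKM, at 1.06 and 1.60 FPKM with a ratio of 1.51 (1.09 to 2.10). The monocyte chemokine gene Ccl2 held 13 and 4 fragments, Ccl7 held 7 and 0, Ccl6 held 10 and 1, and Ccl3 held 7 and 1. The summed fragments of the list were 153 and 152, but the 15 genes other than Tlr2 summed to 89 and 55, a ratio of 0.616 (0.432 to 0.872). None of 7 antigen presentation genes passed the filter, with H2-Ab1 at 18 and 9 fragments and Cd74 at 0.39 and 0.56 FPKM.

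Genes of blood progenitors differed among themselves. Myb, a factor of progenitors, measured 1.16 and 1.36 FPKM and Kit, a receptor of progenitors and other embryonic cells, 4.78 and 5.75 FPKM. Hlf, which neural and other tissues also express, measured 10.5 and 3.13 FPKM, a ratio of 0.298 (0.267 to 0.333).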
